A study of Mus musculus with 6 samples.

Results

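Genes that build the T cell receptor complex, or stand directly next to it, were followed in CD4 T cells short of arginine, 9 in all. They are Cd3d, Cd3e and Cd3g, which encode chains of the CD3 complex, the coreceptor gene Cd4, the kinase gene Zap70, the scaffold genes Lat and Lcp2, and the adaptor genes Trat1 and Themis. The members were chosen by name, with earlier results of these data known. Each of the 9 had 1 probe set that carried its symbol alone, and all 9 were among the 14787 genes tested, out of 22180 genes with such a probe set. For the low arginine arrays (n = 3), CD4 T cells of 12 to 16 week old OT-II transgenic mice met ovalbumin peptide on antigen-presenting cells for 72 hours in RPMI-1640 with 10% dialyzed serum and 1% of the normal arginine (12 uM). For the control arrays (n = 3), OT-II cells from mice of the same age range were stimulated in the same way, at the same peptide dose. Their medium was complete RPMI-1640 with dialyzed serum. All cells of both groups came from animals with the OT-II transgene, a rearranged receptor that recognises ovalbumin on MHC class II, and the sources used here do not name the promoter that drives it. The replicates are called biological in the labels, which do not say how the 6 mice named for the study map to the arrays, so p-values measure the spread between these samples.

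T cells read antigen through a receptor whose antigen-binding chains carry no signalling tail of their own. The CD3 chains supply the tails. On contact with peptide and MHC class II, CD4 brings the kinase LCK to the complex, LCK phosphorylates tyrosine motifs in the CD3 chains, and ZAP-70 docks there and phosphorylates LAT. LAT and the protein of Lcp2, known as SLP-76, then gather the enzymes that open the calcium, protein kinase C and Ras branches. TRIM, the product of Trat1, is a small transmembrane adaptor that associates with the receptor complex and can bind phosphatidylinositol 3-kinase. THEMIS is a T lineage protein that binds GRB2 and the phosphatase SHP-1 and is needed for the positive selection of thymocytes in mice.

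Levels are log2 values of 1 probe set a gene as the authors deposited them, and differences are low arginine minus control on that scale. The groups were compared with limma over all genes tested, and a gene is called where its Benjamini-Hochberg adjusted p is below 0.05. Of the 14787 genes, 1799 (12.2%) were called, 767 higher (5.19%) and 1032 lower (6.98%), or 535 and 1190 after centring at the 75th percentile of each array. Low arginine and control arrays lay apart on the first principal component (60.5% of the variance), and control replicate 1 lay apart from the other controls on the second (22.5%). The 3 arrays of each group limit the precision of every value.

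Trat1 and Themis changed, in opposite directions. Trat1 rose 7.63-fold and Themis fell to 0.495 of its control level, while Cd3d, Cd3e, Cd3g, Cd4, Zap70, Lat and Lcp2 were not called. That made 1 rise and 1 fall among 9 genes, against a background of 12.2% of all genes called. As the 9 were chosen with earlier results known, their shares beside those of all genes are a description and no test. The median difference of the 9 was -0.07, against 0.01 over all genes tested. The groups did not overlap for 3 of the 9, Trat1, Themis and Cd3g, where 32.2% of all genes tested had groups that did not overlap. In bulk RNA, fewer cells expressing a gene and less RNA per cell cannot be told apart.

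**Figure D1:**
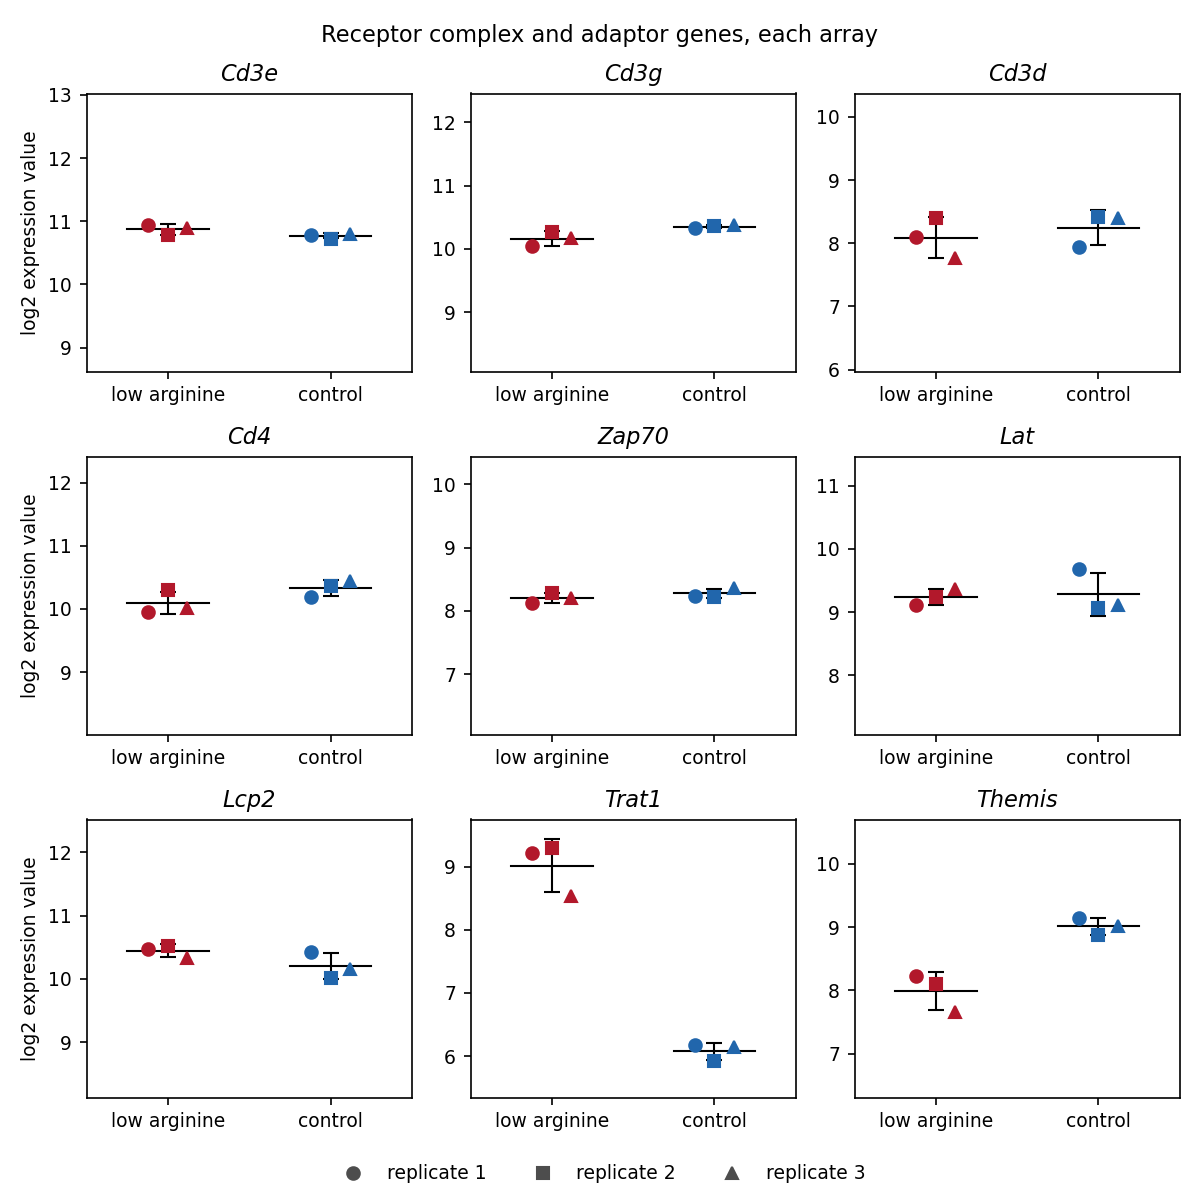
Log2 expression value (vertical axis, each panel spanning the same number of log2 units) of the 9 genes in each low arginine array (left, red) and each control array (right, blue), with the mean and SD of each group of 3 arrays in black. Trat1 lies between 8.53 and 9.29 in low arginine and between 5.92 and 6.17 in control arrays, Themis lies lower in every low arginine array, and the other panels are nearly level.

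Trat1 showed the third largest rise of all 14787 genes. Its log2 values were 9.22, 9.29 and 8.53 in the low arginine arrays, against 6.17, 5.92 and 6.14 in the control arrays. Every low arginine array stood far above every control, and low arginine replicate 3 was the lowest of its group. The means were 9.01 ± 0.42 in low arginine and 6.08 ± 0.14 in control medium (SD, n = 3 each). The log2 difference was 2.93 with an SE of 0.21 and a 95% interval of 2.45 to 3.41 (limma adjusted p = 0.000602). On the linear scale this interval runs from 5.47-fold to 10.7-fold. Trat1 was called with each of the 6 arrays left out in turn, with differences of 2.79 to 3.17, and in the other 9 alternatives, with differences of 2.87 to 3.09. Both group means lay well above 2.48, the level under which genes were left out as dim, so the size of the rise does not rest on values near that limit.

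Themis moved the other way. Its log2 values were 8.23, 8.10 and 7.65 in the low arginine arrays, against 9.14, 8.87 and 9.02 in the control arrays. All low arginine arrays were lower than all controls, and the gap between the groups was about as wide as the spread within low arginine. The SDs were 0.30 in low arginine and 0.14 in control medium (n = 3 each). The log2 difference was -1.02 with an SE of 0.17 and a 95% interval of -1.40 to -0.63 (limma adjusted p = 0.0109). Themis was called with each array left out, with differences of -1.13 to -0.84, where the highest adjusted p by limma was 0.0469. Low arginine replicate 3 held the lowest value of both Trat1 and Themis within its group, so it lessens the rise of the first and adds to the fall of the second.

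Set against each other in the same array, Trat1 and Themis gave a gap wider than either gene alone, which follows from their opposite directions. The log2 ratio of Trat1 to Themis, set to 0 at the control mean, was 3.92, 4.12 and 3.81 in the low arginine arrays, against -0.04, -0.02 and 0.06 in the control arrays. The mean shift was 3.95. This pair was chosen after the values were seen and the ratio was not tested.

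The 250 bases before the annotated start of transcription are shown for the changed genes Trat1 and Themis and for the adjoining pair Cd3g and Cd3d, which did not pass the test. They are read 5′ to 3′ on the gene's own strand from RefSeq (GRCm38.p6). Capitals mark the letters of 5 motifs searched on both strands, namely TATAAA (the TATA box), CTTTGA (core of TCF and LEF factors), AGGAAG (core of ETS factors), CACCTG (bound by E-proteins) and TGATGNAA (the element of ATF4 and its partners). A motif on the other strand appears as its reverse complement, and no marked motifs overlap. Trat1 is at chr16:48772063-48772312 on the minus strand, Themis at chr10:28668110-28668359 on the plus strand, Cd3g at chr9:44980432-44980681 on the minus strand and Cd3d at chr9:44981536-44981785 on the plus strand.
Trat1: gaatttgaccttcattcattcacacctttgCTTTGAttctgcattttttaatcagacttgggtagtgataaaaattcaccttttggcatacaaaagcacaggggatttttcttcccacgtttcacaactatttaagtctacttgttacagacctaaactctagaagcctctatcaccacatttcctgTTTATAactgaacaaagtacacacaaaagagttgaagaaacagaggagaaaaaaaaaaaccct
Themis: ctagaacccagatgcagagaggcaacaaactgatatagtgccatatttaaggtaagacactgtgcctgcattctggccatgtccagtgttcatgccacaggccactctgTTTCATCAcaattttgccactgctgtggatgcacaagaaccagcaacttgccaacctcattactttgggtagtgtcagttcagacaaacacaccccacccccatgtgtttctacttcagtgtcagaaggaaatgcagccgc
Cd3g: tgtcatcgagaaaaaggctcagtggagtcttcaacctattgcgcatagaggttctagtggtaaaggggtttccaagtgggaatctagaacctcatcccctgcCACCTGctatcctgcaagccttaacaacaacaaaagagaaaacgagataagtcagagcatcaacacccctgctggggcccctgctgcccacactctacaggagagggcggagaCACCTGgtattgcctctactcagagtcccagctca
Cd3d: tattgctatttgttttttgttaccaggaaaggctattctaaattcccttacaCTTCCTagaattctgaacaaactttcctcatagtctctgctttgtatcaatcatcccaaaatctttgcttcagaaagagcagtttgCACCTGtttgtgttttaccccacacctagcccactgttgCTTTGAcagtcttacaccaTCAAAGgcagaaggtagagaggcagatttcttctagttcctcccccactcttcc

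The Trat1 window holds 1 match to the TCF and LEF core, 220 bases before the start, and 1 TATA box on the other strand, 63 bases before it. The Themis window holds 1 match to the ATF4 element, on the other strand, 141 bases before the start. Cd3d has the TCF and LEF core at 73 and, on the other strand, at 54 bases before its start, an ETS core at 198 and an E-protein motif at 112. Cd3g has E-protein motifs at 148 and 35 bases before its start. Among 27025 promoters of the same length, 14.1% hold the TCF and LEF core, 13.0% the TATA box, 29.2% the ETS core, 17.1% the E-protein motif and 3.53% the ATF4 element. These matches describe letters only. A window was found for 8 of the 9 genes, and for Cd4 none was used.

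The CD3 genes sit side by side on chromosome 9. Cd3g and Cd3d are read away from each other from starts 1355 bases apart, and Cd3e starts 27825 bases from Cd3d. CD3 epsilon pairs with CD3 delta and with CD3 gamma, and both pairs are part of the assembled alpha beta receptor. Cd3e had log2 values of 10.94, 10.78 and 10.90 in the low arginine arrays, against 10.79, 10.72 and 10.80 in the control arrays. The groups overlapped, and the difference was 0.10 with a 95% interval of -0.14 to 0.34 (limma adjusted p = 0.597). Beads against CD3 epsilon were used to prepare the antigen-presenting cells, while T cells were enriched by negative selection.

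Cd3g had log2 values of 10.04, 10.27 and 10.18 in the low arginine arrays, against 10.33, 10.36 and 10.37 in the control arrays. All low arginine arrays lay below all controls, by little. The difference of -0.19 was not called, with a 95% interval of -0.44 to 0.06 (limma adjusted p = 0.308). Its control arrays spanned 0.05 log2 units, against 0.22 in low arginine. Cd3d had values of 8.10, 8.40 and 7.76 in the low arginine arrays, against 7.93, 8.41 and 8.40 in the control arrays. Low arginine replicate 3 and control replicate 1 were low for Cd3d, and the groups overlapped. Its difference was -0.16, with the widest interval of the 9 genes apart from Trat1, -0.62 to 0.31 (limma adjusted p = 0.687). The Cd3d difference was 0.01 without low arginine replicate 3, and -0.31 when control replicate 1 or, in another fit, low arginine replicate 2 was left out, and was called in none of these fits (limma adjusted p = 0.270 to 0.991).

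Relative to Cd3e in the same array, and set to 0 at the control mean, Cd3g stood at -0.47, -0.10 and -0.30 in the low arginine arrays, against -0.04, 0.05 and -0.01 in the control arrays. The groups did not overlap, with a mean shift of -0.29. The ratio of Cd3d to Cd3e shifted by -0.26 with overlapping groups, and that of Cd3d to Cd3g by 0.03. These ratios were not tested.

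**Figure D2:**
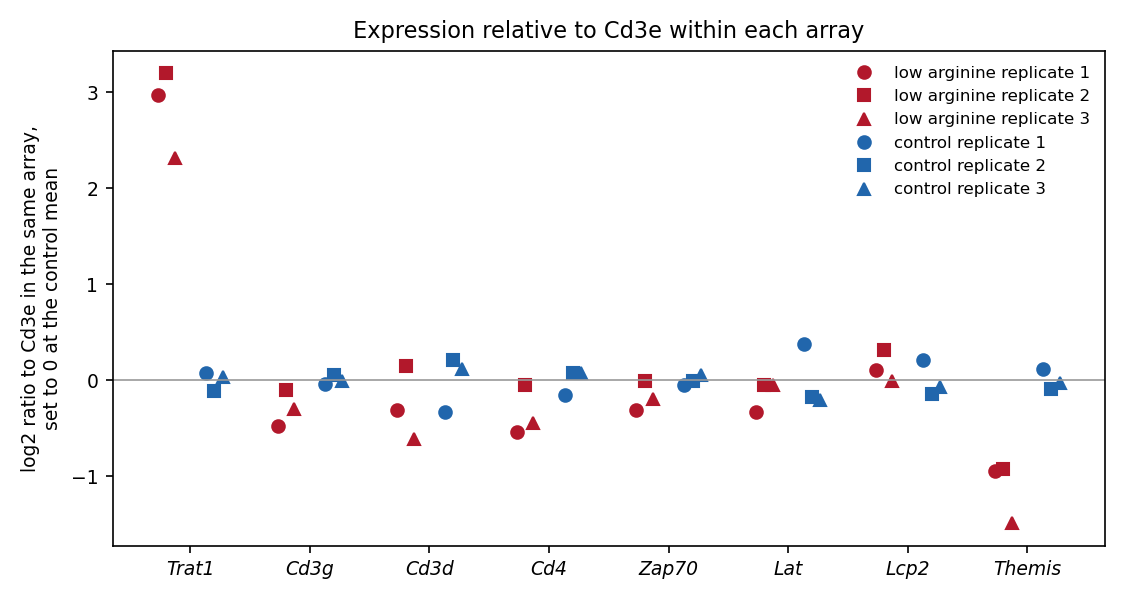
Log2 ratio to Cd3e within the same array (vertical axis), set to 0 at the mean of the control arrays, for the other 8 genes in each low arginine array (red, left of each pair) and control array (blue, right), with a symbol for each replicate. Trat1 lies 2.32 to 3.20 above the control mean in low arginine, Themis lies at -1.49 to -0.92, and Cd3g is the other gene whose groups do not overlap.

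Cd4 encodes the coreceptor that binds MHC class II, and CD4 was also the marker by which the cells were purified again before RNA was taken, so its level is not independent of that step. Its log2 values were 9.96, 10.29 and 10.02 in the low arginine arrays, against 10.20, 10.36 and 10.44 in the control arrays. Low arginine replicate 2 lay above control replicate 1, so the groups overlapped. The difference was -0.24 with a 95% interval of -0.55 to 0.06 (limma adjusted p = 0.290).

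Zap70 encodes the kinase that docks on the phosphorylated CD3 chains. Its log2 values were 8.13, 8.29 and 8.21 in the low arginine arrays, against 8.24, 8.23 and 8.36 in the control arrays. The groups overlapped, and the difference was -0.07 with a 95% interval of -0.31 to 0.18 (limma adjusted p = 0.745).

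Lat, the membrane scaffold that ZAP-70 phosphorylates, had log2 values of 9.12, 9.24 and 9.36 in the low arginine arrays, against 9.67, 9.06 and 9.11 in the control arrays. Control replicate 1 was the highest of all 6 arrays, 0.59 above the mean of the other controls, and the other controls were the lowest. The difference was -0.04 with a 95% interval of -0.45 to 0.37 (limma adjusted p = 0.923). Leaving out control replicate 1 gave 0.16, leaving out low arginine replicate 1 gave 0.02, and array weights gave 0.15.

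Lcp2, whose product SLP-76 links LAT to its effectors through GADS, showed the same array standing high. Its log2 values were 10.47, 10.52 and 10.32 in the low arginine arrays, against 10.43, 10.01 and 10.16 in the control arrays. Control replicate 1 lay 0.34 above the mean of the other controls and within the low arginine range. The difference was 0.24 with a 95% interval of -0.07 to 0.56 (limma adjusted p = 0.310). It was 0.35 without control replicate 1, where limma's adjusted p was 0.0660. With array weights it was 0.41 and passed (limma adjusted p = 0.00997), and across all alternatives the difference ran from 0.15 to 0.41.

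Over the 7 genes that were not called, the differences ran from -0.24 to 0.24. The lowest bound of their 95% intervals was -0.62 (Cd3d) and the highest 0.56 (Lcp2) on the log2 scale, or 0.651-fold and 1.47-fold. Single intervals were narrower than this range, that of Zap70 running from -0.31 to 0.18. A change within a gene's own interval could not be told from none for that gene. None of the 7 passed with any single array left out, by limma, and their adjusted p in those fits was 0.0660 or higher. At an unadjusted p below 0.05 the count was also 2 of 9, Trat1 and Themis, where 27.3% of all genes had such a p.

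**Figure D3:**
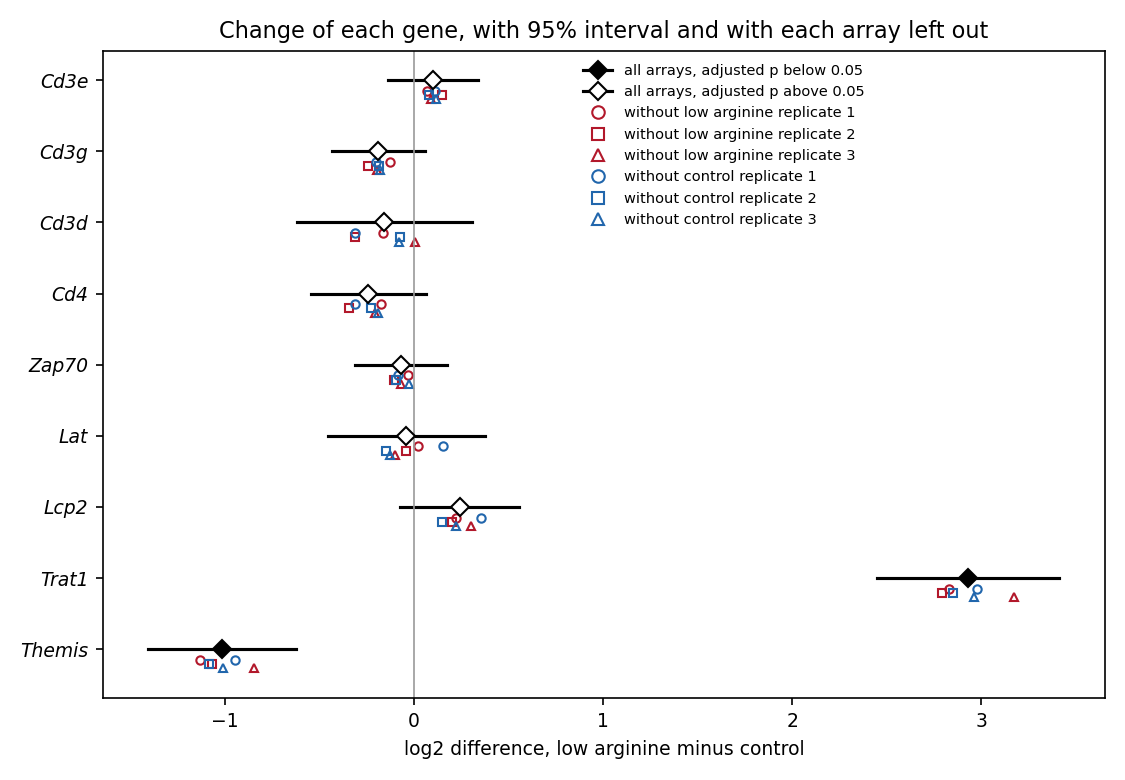
Log2 difference, low arginine minus control (horizontal axis), for each gene with all arrays (diamond, filled where the adjusted p is below 0.05) and its 95% interval (line), and with each low arginine array (red) or control array (blue) left out (open symbols). Trat1 stays between 2.79 and 3.17 and Themis between -1.13 and -0.84, while the symbols of Lat and Cd3d fall on both sides of 0.

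For each of the 9 genes, the gene with the most similar pattern was found by the root mean square difference over the 6 arrays, after each gene's own mean was taken off. For Trat1 it was the predicted gene Gm20559, at 0.143 log2 units, with a difference of 2.82. For Themis it was Nelfe, at 0.045, with a difference of -0.95. For the CD3 genes these were Fnbp1 (Cd3e, 0.018), Yipf3 (Cd3g, 0.021) and Pts (Cd3d, 0.092). C2cd4c lay nearest to Cd4 (0.040), Clpsl2 to Zap70 (0.021), Skp1 to Lat (0.041) and Nrf1 to Lcp2 (0.026). With 6 arrays in 2 groups, genes with little change lie close to many others.

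The wider pathway was described with 6 lists holding 136 genes, of which 125 were matched and 123 tested. Of these, 12 rose and 6 fell, 14.6% called against 12.2% of all genes. The lists too were chosen with earlier results known, so this comparison is a description only. Of the 18, 5 were called with each array left out in turn, namely Tec, Skap2, Nedd4, Nfkb2 and Lef1. Dropping an array also moved the count over all 14787 genes, which was 1799 with every array. That count became 3325, 500 or 1367 when control array 1, 2 or 3 was dropped. For low arginine arrays 1, 2 and 3 it became 995, 509 and 592. The list counts below belong beside these totals, and whether any list shifted more than all genes was not tested. Lck and Cd247, which encode the kinase LCK and the zeta chain of the complex, were not analysed here.

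Among kinases and phosphatases of the receptor, 1 of 13 tested was called. Tec, a kinase of the family that acts on phospholipase C gamma, fell to 3.97 ± 0.19 in low arginine, against 4.95 ± 0.22 in control medium (SD, n = 3 each), a log2 difference of -0.98 (limma adjusted p = 0.00927). Fyn, the kinase related to LCK, differed by 0.31 (adjusted p = 0.138). The list median was -0.11, against 0.01 over all genes. Without control replicate 1 the count was 4, all falls, and the median was -0.32. Without control replicate 2 or 3 the median was -0.19 or -0.20.

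Of 30 adaptors and effectors next to LAT and SLP-76, 2 fell. Skap2, a relative of the adhesion adaptor SKAP1, fell by 0.89 (limma adjusted p = 0.00563). Sh2d2a, which encodes the adaptor TSAd, fell by 0.57 (adjusted p = 0.0446) and kept its call in 1 of the 6 fits that left out an array, the one without control replicate 1 (adjusted p = 0.103 to 0.155 in the others). Sh2d2a was also lost after quantile normalization (adjusted p = 0.0549). Plcg1, the phospholipase C gamma that LAT recruits, differed by -0.42 (adjusted p = 0.245). The list median was -0.07. The count was 4 without control replicate 1, and 1 when replicate 2 or 3 of either group was left out. Grap2, which encodes GADS, and Grb2, which THEMIS binds, differed by -0.01 and -0.36 (adjusted p = 0.984 and 0.0716), and were named after their values were seen.

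Of 23 genes listed as brakes on the receptor signal, 3 rose and 1 fell. Whether Nedd4 or any other listed gene acts as a brake in these cells was not tested. Nedd4, a ubiquitin ligase, fell to 5.60 ± 0.41 in low arginine, against 7.47 ± 0.30 in control medium (SD, n = 3 each), a log2 difference of -1.87 (limma adjusted p = 0.00472). Spry1, an inhibitor of Ras signalling, rose by 1.13 (adjusted p = 0.0144), Nfkbia, the inhibitor of NF-kB, by 0.61 (0.0409) and Pag1, the membrane anchor of CSK, by 0.57 (0.0267). Spry1 lost its call when low arginine replicate 2 or 3 was left out (adjusted p = 0.0679 to 0.0713). Nfkbia (0.0919 to 0.142) and Pag1 (0.0769 to 0.107) lost theirs when control replicate 2 or any low arginine array was left out, and Nfkbia also after centring at the 75th percentile (0.0590). The list median was -0.03. Leaving out control replicate 1 gave 9 calls, control replicate 2 or low arginine replicate 1 gave 2, and low arginine replicate 2 or 3 gave 1.

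In the calcium, protein kinase C and NF-kB branches, 3 of 20 rose, all of them genes of NF-kB subunits. Relb, another subunit gene, differed by 0.14 and was not called (limma adjusted p = 0.764), and Nfkb1 was not analysed here. Nfkb2 rose to 8.07 ± 0.11 in low arginine, against 7.10 ± 0.23 in control medium (SD, n = 3 each), a log2 difference of 0.97 (limma adjusted p = 0.00776). Rel rose by 0.89 (adjusted p = 0.0320) and Rela by 0.37 (0.0496). Rel was lost without control replicate 2 or any low arginine array (adjusted p = 0.0733 to 0.121), and Rela without any array but control replicate 1 (0.0991 to 0.158). Rela was also lost after quantile normalization, either centring and further settings, passing in 4 of 9. Prkcq, the protein kinase C theta of T cells, differed by 0.45 (adjusted p = 0.100). The list median was 0.09. The count was 5 without control replicate 1, and 1 without control replicate 2 or any low arginine array.

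Of 16 surface partners of the receptor, 3 rose and 1 fell. Cd96, a receptor of nectin family ligands, rose by 0.63 (limma adjusted p = 0.0488), and the self-binding receptors Slamf6 and Slamf1 by 0.61 (0.0399) and 0.49 (0.0443). Cd81, a tetraspanin, fell by 0.57 (adjusted p = 0.0158). The costimulatory receptor Cd28 differed by -0.32 (adjusted p = 0.264). Averaged over its probe sets, Slamf6 differed by 0.36 and was not called (adjusted p = 0.200), and it also missed the threshold after centring at the 75th percentile (0.0526). Slamf1 missed it under both centrings (0.0633 and 0.0871). Cd96 missed it under both centrings, when dim genes were kept and under a trended robust prior (0.0520 to 0.0567). None of the 4 held its call with each array left out in turn: Cd81 missed the threshold when replicate 2 of either group or low arginine replicate 3 was left out (adjusted p = 0.0563 to 0.0767), and the 3 rises did so when control replicate 2 or any low arginine array was (0.0683 to 0.164 over all fits that lost them). By limma the count was 0 when replicate 2 of either group was left out, with 5 of 16 at an unadjusted p below 0.05 in each. Such a p was held by 3103 of all 14787 genes in the fit lacking the control array, and by 3114 in the other. Leaving out control replicate 3 gave 2 calls, and low arginine replicate 1 or 3 gave 1. Centring at the 75th percentile also gave 1, a fall. The list median was -0.11, and 0.01 without control replicate 1 or -0.01 without control replicate 2.

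Of 21 T lineage transcription factors, 3 rose and 1 fell. Lef1, a TCF family factor of naive and memory cells, rose to 10.06 ± 0.03 in low arginine, against 9.19 ± 0.06 in control medium (SD, n = 3 each), a log2 difference of 0.86 (limma adjusted p = 0.00360). Bcl11b, which fixes T lineage identity, rose by 0.73 (adjusted p = 0.0156) and Tcf12, an E-protein, by 0.53 (0.0321). Runx3, the factor of the CD8 and Th1 programmes, fell by 0.76 (adjusted p = 0.0373). Bcl11b was lost without control replicate 2 or any low arginine array (adjusted p = 0.0527 to 0.0713), Tcf12 without any array but control replicate 1 (0.0538 to 0.127) and after centring at the 75th percentile (0.0657), and Runx3 in 4 fits, those missing replicate 2 of either group, control replicate 3 or low arginine replicate 1 (0.0801 to 0.139). The list median was 0.20. The count was 1 when replicate 2 of either group was left out, and 2 for control replicate 3 and for low arginine replicates 1 and 3.

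**Figure D4:**
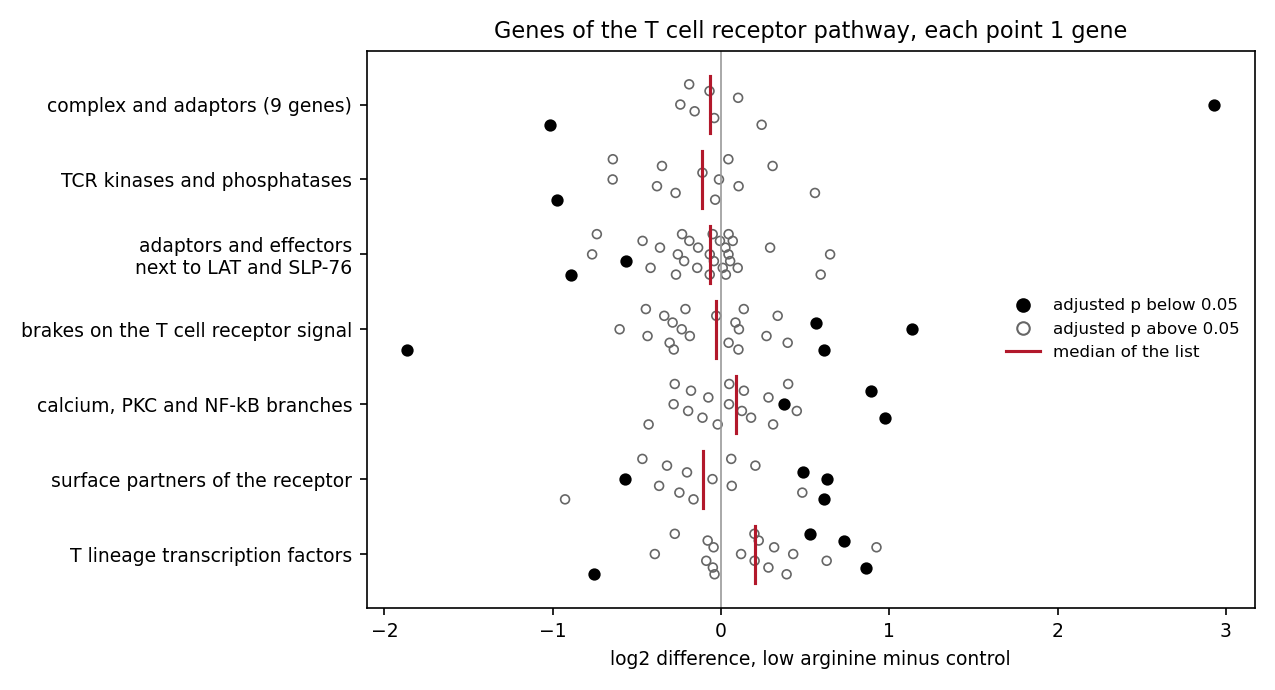
Log2 difference, low arginine minus control (horizontal axis), of each tested gene of the 6 pathway lists and of the 9 genes of the complex and adaptors (top row), filled where the adjusted p is below 0.05, with the median of each list as a red bar. Trat1 at 2.93 lies beyond every gene of the pathway lists, whose furthest point is Nedd4 at -1.87, and the list medians lie between -0.11 and 0.20.

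The labelled cell type was checked against markers. Cd3e and Cd4 lay far above the dim limit of 2.48 in every array, Cd4 being also the marker of purification. The CD4 T cell markers Cd2, Cd5, Thy1 and Cd28 averaged 7.64 or higher in both groups. Zbtb7b, listed with them, averaged 4.74 in low arginine and 4.54 in control arrays. By contrast, 6 of 9 matched B cell markers lay under the dim limit. The brightest of the 9, Cd79b, averaged 3.16 in low arginine and 3.14 in control arrays. Pax5, a B cell transcription factor, differed by -0.22 (limma adjusted p = 0.276). The mean level of the B cell list was 2.37 to 2.42 in low arginine and 2.38 to 2.50 in control arrays. That of 19 matched myeloid and dendritic markers was 2.73 to 2.85 and 2.70 to 2.74, with 8 under the limit. Their brightest gene Cd68 differed by 0.21 (limma adjusted p = 0.703) and Fcer1g by -0.29, which was not called. Plasma cell markers (5 matched, 3 under the limit) averaged 2.54 to 2.61 and 2.57 to 2.62, Mzb1 differing by -0.03 and Jchain, under the limit and not tested, by -0.22. Sox13, the 1 matched gamma delta marker, differed by 0.00.

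Single markers of other cells moved with the groups. The T cells had been depleted of cells with MHC class II, CD8, B220, CD11b or CD49b before culture. The culture itself held antigen-presenting cells, and CD4 cells were purified again before RNA was taken. The mean of 7 matched MHC class II genes was 3.52 to 3.68 in low arginine, against 3.87 to 4.27 in control arrays. H2-Ab1, a class II chain, averaged 4.15 ± 0.07 in low arginine and 7.21 ± 0.46 in control arrays (SD, n = 3 each), a log2 difference of -3.06 (limma adjusted p = 0.000602), and was the 1 gene called of the 5 tested. The other 4 were not called: H2-DMa differed by -0.25 (adjusted p = 0.157), H2-Ob by -0.27 (0.698), Ciita by -0.08 (0.788) and H2-Eb1 by 0.02 (0.957). The median difference over the 5 was -0.25. H2-Aa and H2-DMb1 lay under the dim limit. The CD8 genes averaged 4.50 to 4.57 in low arginine and 4.64 to 5.47 in control arrays, with Cd8b1 differing by -0.66 and Cd8a by -0.61 (limma adjusted p = 0.0632 and 0.241). Cd8b1 alone averaged 6.24 in low arginine and 6.90 in control arrays, and Cd8a 2.85 and 3.46. Of 6 matched NK genes, 4 lay under the limit, Ncr1 and Klrb1c among them, and the list mean was 2.79 to 2.89 in low arginine and 2.78 to 2.98 in control arrays. In that list Klrk1 fell by 1.04 (limma adjusted p = 0.0134) and Eomes differed by 0.79 (0.0779). Klrk1 was dim, averaging 2.86 in low arginine and 3.90 in control arrays, against the dim limit of 2.48. Klrk1 missed the threshold when control replicate 2 or low arginine replicate 3 was left out (adjusted p = 0.0638 to 0.0650). Whether other cells were present, and any part of them in the values of Trat1, Themis and the other genes, was not tested. No erythroid marker was matched.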

How the data were processed

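RNA of 6 cultures of CD4 T cells was measured on 1-colour whole-transcript arrays. The authors deposited log2 expression values per probe set, made with the oligo package per the submitters' processing notes. Its version, background correction, normalization and summarization were not given in the sources used here. A log base of 2 was inferred from the deposited values, which lie between 0.956 and 12.41. Sorted and set side by side, the arrays differed by no more than 0.199. No detection calls were used.

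Of 41345 probe sets, 23521 carried exactly 1 gene symbol, 1814 several and 16010 none. The brightest by mean over the 6 arrays stood for its gene. Of 22180 genes, the 7393 dimmest (mean under 2.48) were left out. R 4.3.3 with limma 3.58.1 fitted the rest on group alone through lmFit and eBayes, as a two-sided test with 4 residual degrees of freedom and 3.69 from the prior, and Benjamini-Hochberg adjustment over 14787 genes. The fit was run on simulated data with planted changes and noise drawn independently for each gene and array. That run does not show how an array that stands apart moves the calls. Figures were drawn with matplotlib 3.10.9.

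The members and lists were chosen with earlier results of these data known. The named genes are all 9 members, the 3 called genes with the largest rise and the 3 with the largest fall in each pathway list, the brightest and the most changed marker of each other cell type, 8 genes whatever their result, and the gene nearest to each member. Grap2, Grb2 and Relb, and the pairs set against each other within arrays, were added after their values were seen. So were the levels of the CD4 T cell markers Cd2, Cd5, Thy1 and Zbtb7b. Promoter windows and start distances came from RefSeq (GRCm38.p6), the most upstream annotated start standing for its gene. Samples with the same replicate number were checked for pairing by the correlation of their deviations from the group means over all genes tested. Alternatives were quantile normalization, centring on the median or 75th percentile, no filter on dim genes, a filter of 0.5, the mean of probe sets, a trended robust prior, array weights, the replicate block, and each array left out.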

Additional observations from a re-analysis of the deposited data

How the results depend on the processing

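Trat1 stayed higher and Themis lower, both past the threshold, in the 15 alternatives run. With array weights, 5514 genes were called (2777 higher, 2737 lower), Lcp2 passed with 0.41 and Lat differed by 0.15. In that setting the counts were 7 for kinases and phosphatases (median -0.25), 10 for adaptors and effectors, 12 for brakes, 9 for the calcium and NF-kB branches, 8 for surface partners and 12 for T lineage factors. Kinases numbered 2 with either centring and with no filter, and their median was -0.19 with a filter of 0.5. Adaptors numbered 1 after quantile normalization. Surface partners numbered 2 with median centring, 1 centred on the 75th percentile and 2 with the replicate block. The cause was not tested.

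Leaving out each array in turn gave 500 (without control replicate 2) to 3325 genes (without control replicate 1), and 2 of the 9 members each time. Differences ran from -0.15 to 0.16 for Lat, with 0.02 without low arginine replicate 1, and from -0.31 to 0.0070 for Cd3d. Counts ran from 1 to 4 for kinases (median -0.32 to -0.065), 1 to 4 for adaptors, 1 to 9 for brakes, 1 to 5 for the calcium and NF-kB branches, 0 to 6 for surface partners (median -0.17 to 0.0057) and 1 to 6 for T lineage factors. The filter and the choice of probe set used all 6 arrays throughout.

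Same-numbered samples had correlations of 0.121, 0.059 and 0.141 in their deviations from the group means, and each sample correlated best with its own number. The 3 correlations are small, so this check cannot decide whether the numbers are pairs. The labels state no pairing, and the main fit used group alone. With the replicate block 1568 genes were called (632 higher, 936 lower), and Trat1 and Themis kept their calls. Of the 18 pathway genes called, 5 missed the threshold in that fit, namely Nfkbia (limma adjusted p = 0.0533), Slamf1 (0.0661), Sh2d2a (0.0689), Slamf6 (0.0713) and Rela (0.0915). The 3 arrays a group limit what could be called, and signal over background was not analysed here.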
